A study of Mus musculus with 15 samples.

Results

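The 10 genes described here belong to the Bcl2 family, the proteins that decide whether the mitochondrial outer membrane of a cell is opened during apoptosis. They were chosen by symbol, as Bax, Bak1, Bcl2, Bcl2l1, Bcl2l2, Mcl1, Bcl2l11, Bbc3, Bid and Bad, and each was found once among the 23510 gene IDs of the expression table. RNA had been sequenced from 15 mouse testis libraries of the outbred ICR strain in 5 groups of 3. Con was labelled control. MNC was labelled as the vector control of the muscarinic receptor lentiviruses. M1, M3 and M5 were knockdown groups for the muscarinic acetylcholine receptors of those names, which respond to acetylcholine. Per the study's methods, males of 5 weeks received lentivirus in the testis, with a mix of shRNAs against 3 positions of each receptor, and testes were collected 10 days later. Whole testis was sequenced and the injection was not directed to 1 cell type, so a value averages all cells of the organ. The labels do not say whether replicates came from separate animals, and p-values measure only the spread between these libraries.

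Members of this family fall into 3 classes. Bax and Bak1 encode the effectors, which form pores in the outer mitochondrial membrane and let cytochrome c out. Bcl2, Bcl2l1 (BCL-XL), Bcl2l2 (BCL-W) and Mcl1 encode survival proteins, which hold the effectors and their activators in check. Bcl2l11 (BIM), Bbc3 (PUMA), Bid and Bad encode BH3-only proteins, which sense stress and bind survival proteins, and some of them also the effectors, through a short helix called the BH3 motif. In the testis, many germ cells die by apoptosis during the first wave of spermatogenesis, and male mice without Bax or without Bcl2l2 are sterile.

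The core of the BH3 motif is a stretch found in all 10 members. In the BH3-only proteins it is part of the helix that binds survival proteins. The 27 coding bases (9 codons) of this core are shown from the GENCODE M21 transcript of each gene, 5′ to 3′ on the coding strand. Capitals mark codon 1 and codons 5 and 6 of the stretch.
Bcl2l1: CTGagagaggcaGGCGATgagtttgaa
Mcl1: CTGcggcgcgtgGGCGACggcgtgcag
Bcl2l2: ATGcgggctgctGGAGACgagtttgag
Bcl2: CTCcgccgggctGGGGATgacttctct
Bax: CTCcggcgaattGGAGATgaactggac
Bak1: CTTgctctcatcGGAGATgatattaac
Bad: CTCcgaaggatgAGCGATgagtttgag
Bcl2l11: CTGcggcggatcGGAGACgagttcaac
Bbc3: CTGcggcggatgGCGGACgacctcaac
Bid: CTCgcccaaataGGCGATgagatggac

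Codon 1 encodes leucine in 9 of the 10 genes and methionine in Bcl2l2. Codon 5 encodes glycine in 8 genes, alanine in Bbc3 and serine in Bad, and codon 6 encodes aspartate in each gene. The submitters' processing notes name the mouse build mm10, so positions are given in GRCm38, the same assembly. Among the survival genes, the core lies in exon 2 of Bcl2l1 (chr2:152829697-152829723, minus strand), exon 1 of Mcl1 (chr3:95659436-95659462, plus), exon 3 of Bcl2l2 (chr14:54884517-54884543, plus) and exon 1 of Bcl2 (chr1:106712575-106712601, minus). Among the effectors, it lies in exon 3 of Bax (chr7:45465997-45466023, minus) and exon 4 of Bak1 (chr17:27022531-27022557, minus). Among the BH3-only genes, it lies in exon 3 of Bad (chr19:6950792-6950818, plus), exon 3 of Bcl2l11 (chr2:128147150-128147176, plus), exon 3 of Bbc3 (chr7:16313773-16313799, plus) and exon 4 of Bid (chr6:120897289-120897315, minus).

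Expression is given as FPKM, in which the fragments of a gene are divided by its length and by the library's mapped total, a per-length scale on which genes can be compared. FPKM summed to between 470243 and 513817 per library, and the number of reads behind a value is unknown. The targeted receptor transcripts were near the floor in every library. Chrm5 lay between 0.22 and 0.37 FPKM in M5 and between 0.23 and 0.43 in MNC (exact permutation p = 0.5), Chrm1 between 0.09 and 0.14 in M1 and 0.1 and 0.11 in MNC (exact permutation p = 0.9), and Chrm3 between 0.04 and 0.11 in M3 and 0.01 and 0.05 in MNC (exact permutation p = 0.3). These values do not check the labels. The marker genes of Sertoli cells (7 of 7, led by Clu) and Leydig cells (6 of 6, led by Insl3) were above 0 in every group, as were all 6 spermatogonial and all 7 spermatocyte markers, although the extraction text speaks of sperm. M5 replicate 3 stood apart, with a summed Leydig marker FPKM of 3137 against at most 1993 in the other 14 libraries, a Sertoli sum of 680 against at most 571, and a red blood cell sum of 491 against at most 167.

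The transcripts of the family spanned a wide range of levels. The mean FPKM over 15 libraries was 45.3 for Bcl2l1, 32.4 for Bad, 28.7 for Mcl1, 8.68 for Bax, 7.55 for Bcl2l2, 7.44 for Bak1, 2.52 for Bcl2l11, 1.25 for Bbc3, 0.487 for Bid and 0.19 for Bcl2. The survival gene that gave the family its name was therefore the lowest of the 10, at the percentile 22.1 of all gene IDs by mean FPKM, while Bcl2l1 stood at the percentile 90. Bcl2l1 was the highest of the 4 survival genes in every library but M5 replicate 3, where Mcl1 was level with it.

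Bcl2l1, which encodes BCL-XL, had 50.85, 48.25 and 46.46 FPKM in Con replicates 1 to 3, 47.35, 43.02 and 46.65 in MNC and 46.7, 46.08 and 46.26 in M1. In M3 it had 48.12, 46.12 and 43.4 FPKM, and in M5 42.13, 41.21 and 37.3. All 3 M5 libraries lay below the other 12 libraries, and the 4 other groups overlapped each other in the order of their means (Con, M1, M3, MNC). Mcl1, which encodes a short-lived survival protein, had 28.53, 29.01 and 28.13 FPKM in Con, 30.57, 24.9 and 27.71 in MNC and 25.38, 27.92 and 24.5 in M1. In M3 it had 25.9, 27.71 and 30.85, and in M5 30.99, 31.0 and 37.37. The M5 libraries were the highest of the 15, with M3 replicate 3 and MNC replicate 1 just beneath them.

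Bcl2l2, which encodes BCL-W, had 9.22, 9.33 and 8.41 FPKM in Con, 7.65, 7.58 and 6.64 in MNC and 7.23, 6.76 and 6.9 in M1. In M3 it had 6.13, 7.55 and 6.2, and in M5 5.87, 7.45 and 10.35. The M5 group held both the lowest and the highest value of the 15 libraries. Bcl2 itself ranged from 0.11 FPKM in M1 replicate 3 to 0.44 in M5 replicate 3. Its group values were 0.17, 0.15 and 0.13 in Con, 0.22, 0.25 and 0.2 in MNC, 0.19, 0.22 and 0.11 in M1, 0.13, 0.18 and 0.14 in M3, and 0.15, 0.17 and 0.44 in M5. Apart from M5 replicate 3, Bcl2 was at or below 0.25 FPKM in each library, where 2 decimals leave little resolution.

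Of the effectors, Bax had 9.47, 10.53 and 8.78 FPKM in Con, 8.71, 7.5 and 7.4 in MNC, 7.13, 7.47 and 8.16 in M1, 7.34, 9.14 and 8.56 in M3, and 8.4, 7.97 and 13.68 in M5. The mean of M5, 10 ± 3.2 (SD, n = 3), was set by replicate 3, and the 2 other M5 libraries lay within the range of M1 and M3. Bak1 had 8.06, 7.09 and 8.02 FPKM in Con, 8.53, 7.2 and 9.38 in MNC, 7.43, 7.22 and 5.88 in M1, 7.34, 9.31 and 5.9 in M3, and 5.85, 6.85 and 7.54 in M5. The 5 groups of Bak1 overlapped their neighbours in the order of means. The effectors were thus measured at similar per-length levels, with group means of 7.59 to 10 FPKM for Bax and 6.75 to 8.37 for Bak1. Bak1 overlaps Ggnbp1 in the RefSeq annotation, and the counting is not stated to use strand, so reads of overlapping genes may be shared.

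Among the BH3-only genes, Bad, whose protein is held inactive by growth factor signalling, was by far the highest. It had 40.49, 35.96 and 37.34 FPKM in Con, 30.57, 31.3 and 37.95 in MNC, 34.69, 29.36 and 33.8 in M1, 30.95, 32.29 and 30.05 in M3, and 28.59, 27.29 and 25.72 in M5. The 3 M5 libraries were the lowest of the 15. Bad overlaps Gpr137 in the annotation.

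Bcl2l11, which encodes BIM, had 2.62, 2.48 and 2.58 FPKM in Con, 2.42, 3.23 and 2.09 in MNC, 1.92, 2.35 and 3.48 in M1, 3.42, 2.92 and 1.87 in M3, and 2.13, 1.61 and 2.68 in M5, with all neighbouring groups overlapping. Bbc3, the p53 target that encodes PUMA, had 1.83, 1.27 and 1.09 in Con, 1.46, 1.56 and 1.74 in MNC, 1.45, 0.99 and 1.55 in M1, 1.06, 1.44 and 0.62 in M3, and 0.63, 0.71 and 1.4 in M5. The lowest Bbc3 values were those of M3 replicate 3 and M5 replicates 1 and 2.

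Bid, whose protein is cut by caspase-8 and so links death receptors to mitochondria, had 0.05, 0.04 and 0.05 FPKM in Con, 1.49, 0.23 and 1.04 in MNC, 0.23, 1.15 and 0.12 in M1, a listed value of 0, then 0.7 and 0.15 in M3, and 1.48, 0.45 and 0.13 in M5. Of the 12 libraries of the lentivirus groups, 11 lay above the 3 Con libraries, and M3 replicate 1 was listed at 0.

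Across the 10 genes, the groups ordered by their means give 40 neighbouring pairs. The ranges of the libraries overlapped in 37 of these pairs. The 3 pairs that did not overlap were MNC above M5 for Bcl2l1, M5 above Con for Mcl1 and M3 above M5 for Bad. Each had an exact permutation p = 0.1, the smallest that 3 against 3 libraries allow. Any pair without overlap gives this value, so it adds nothing to the choice of these pairs. How often neighbouring pairs fail to overlap over all genes was not counted. Between fixed groups it was common, at 32.1% of all genes tested for M5 against MNC and 22.9% for M5 against M3. These shares are not for pairs ordered by their means, and M5 against Con was not among the comparisons made.

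**Figure D1:**
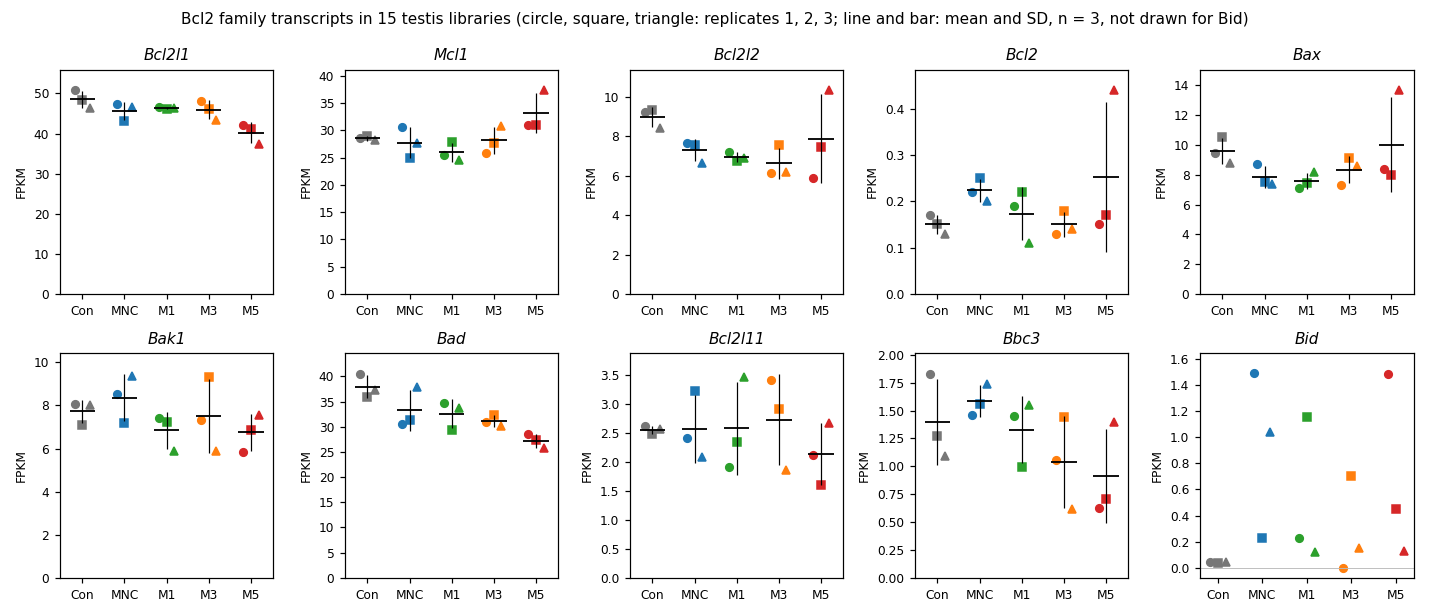
FPKM (vertical axes) of the 10 Bcl2 family genes in the 5 groups (horizontal axes), with circles, squares and triangles for replicates 1, 2 and 3 and black lines for the mean and SD of 3 libraries, not drawn for Bid, which has a listed 0. The M5 triangles are the highest points for Bax, Bcl2, Bcl2l2 and Mcl1 and the lowest for Bcl2l1 and Bad, and the 3 Bid values of Con lie at 0.04 to 0.05.

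The comparison of MNC with Con set the vector control against the group labelled control. The groups also differed in the marker sums given below, from which lentiviral delivery cannot be told apart. Differences were tested with limma on log2(FPKM + 1), over the 14514 genes whose mean FPKM reached 1. P-values were adjusted over all of them (Benjamini-Hochberg), and called means an adjusted p below 0.05. Bcl2 and Bid lie below this level and were compared by exact permutation tests, so 8 of the 10 members were tested with limma. None of the 8 was called in MNC against Con, where 20.4% of all genes tested were called. At an unadjusted p under 0.05, which 40.1% of all genes passed, there were 2 members. Bcl2l2 was at 7.29 ± 0.56 FPKM in MNC and 8.99 ± 0.5 in Con (SD, n = 3 each), a log2 difference of -0.27 (95% interval -0.46 to -0.08, limma adjusted p = 0.0553). Bax was at 7.87 ± 0.73 in MNC and 9.59 ± 0.88 in Con, a log2 difference of -0.26 (interval -0.48 to -0.03, limma adjusted p = 0.0928). These 2 were also the members whose groups did not overlap, which held for 46.5% of all genes. The median log2 difference of the 8 members was -0.07, against -0.10 over all genes tested. Bcl2 was at 0.223 ± 0.025 in MNC and 0.15 ± 0.02 in Con, and Bid at 0.92 ± 0.64 and 0.0467 ± 0.0058, both with no overlap (exact permutation p = 0.1 for each). Summed markers of elongating spermatids (6 of 6 detected, led by Prm1) ranged from 10157 to 20195 FPKM in Con and from 20848 to 26963 in MNC, and those of epididymis (4 of 4 in Con, led by Crisp1) from 14.6 to 33.9 and from 0.19 to 0.34. Their part in these differences was not tested, and in whole testis a smaller share of a cell type cannot be told apart from less RNA per cell.

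M5 was set against MNC to ask what differs when the M5 receptor is targeted. None of the 8 members was called, against 5.65% of all genes tested. There were 3 members at an unadjusted p under 0.05, against 24.9% of all genes, and all 3 were lower in M5. Bad was at 27.2 ± 1.4 FPKM in M5 and 33.3 ± 4.1 in MNC, a log2 difference of -0.28 (interval -0.51 to -0.04, limma adjusted p = 0.142). Bbc3 was at 0.913 ± 0.42 and 1.59 ± 0.14, a difference of -0.46 (interval -0.87 to -0.04, limma adjusted p = 0.164). Bcl2l1 was at 40.2 ± 2.6 and 45.7 ± 2.3, a difference of -0.18 (interval -0.35 to -0.01, limma adjusted p = 0.182). With the GC trend removed, all 3 differences were smaller, at -0.13 for Bad, -0.15 for Bbc3 and -0.12 for Bcl2l1. That setting made the positive differences larger, at 0.42 for Bax, 0.33 for Mcl1 and 0.20 for Bcl2l2. Bak1 went to -0.14 and Bcl2l11 stayed at -0.19. The part of GC content in these values was not tested further. The groups did not overlap for 4 members, against 32.1% of all genes. These were Bad, Bbc3, Bcl2l1 and Mcl1, the last at 33.1 ± 3.7 in M5 and 27.7 ± 2.8 in MNC (difference 0.25, interval -0.01 to 0.50, limma adjusted p = 0.213). The effectors lay on opposite sides of MNC, with log2 differences of 0.28 for Bax (interval -0.20 to 0.75) and -0.27 for Bak1 (interval -0.59 to 0.04). The median difference over the 8 members was -0.18, and 0.03 over all genes tested.

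M5 replicate 3 decided several of these values. Without it, the log2 difference of Bax between M5 and MNC was 0.0531 and that of Bcl2l2 turned from 0.07 to -0.12. The difference of Bbc3 then reached -0.63 and was called (limma adjusted p = 0.0387). Those of Bad and Bcl2l1 were -0.24 and -0.13, with limma adjusted p of 0.218 and 0.246. This library had the highest summed markers of Sertoli cells, Leydig cells, macrophages (97.7 FPKM, against at most 75.6 in the others), endothelium (9.1) and red blood cells, and its part in the member values was not tested beyond leaving it out.

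M5 was then set against M1. None of the 8 members was called, against 6.75% of all genes, and 3 had an unadjusted p under 0.05, against 25.4% of all genes. The groups of these 3 did not overlap, as for 33.7% of all genes. Mcl1 was at 33.1 ± 3.7 FPKM in M5 and 25.9 ± 1.8 in M1, a log2 difference of 0.34 (interval 0.12 to 0.56, limma adjusted p = 0.0788). Bcl2l1 was at 40.2 ± 2.6 and 46.3 ± 0.32, a difference of -0.20 (interval -0.34 to -0.06, limma adjusted p = 0.0927). Bad was at 27.2 ± 1.4 and 32.6 ± 2.9, a difference of -0.25 (interval -0.44 to -0.06, limma adjusted p = 0.111). Against M3, none of the 8 was called, and 0.0138% of all genes were. Bcl2l1 (difference -0.19, limma adjusted p = 0.344) and Bad (difference -0.19, limma adjusted p = 0.338) had an unadjusted p under 0.05, as did 14.3% of all genes. The groups did not overlap for these genes and for Mcl1 (3 members, against 22.9% of all genes). The comparisons of M5 share the M5 libraries, so that the values of Bad and Bcl2l1 in them are not independent of each other.

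For M1 and M3, the comparison with MNC asked the same of the receptors named. In M1 against MNC, 0% of all genes and none of the 8 members were called, and 0 members had an unadjusted p under 0.05, which 5.94% of all genes had. The groups overlapped for each of the 8 members, and did not for 12% of all genes. The largest difference was that of Bak1, -0.26 (interval -0.55 to 0.04, limma adjusted p = 0.819), with 6.84 ± 0.84 FPKM in M1 and 8.37 ± 1.1 in MNC. In M3 against MNC, 0.00689% of all genes and none of the members were called, and 0 members had an unadjusted p under 0.05, against 9.43% of all genes. Bbc3 was the 1 gene of the 8 whose groups did not overlap (17.1% of all genes), at 1.04 ± 0.41 FPKM in M3 and 1.59 ± 0.14 in MNC (difference -0.36, interval -0.75 to 0.03, limma adjusted p = 0.521). Bcl2, below the filter, did not overlap either: MNC held 0.223 ± 0.025 FPKM and M3 held 0.15 ± 0.026, with p = 0.1 in the exact permutation test, the smallest it can give. Summed epididymis markers were at 21.3, 5.61 and 1.2 FPKM in M3 replicates 1 to 3 and at 0.19 to 0.34 in MNC. The Leydig sum of M3 replicate 1 was 654, against 1550 to 1993 in MNC. The part of these markers in the M3 values was not tested. Bcl2l1 had the narrowest intervals. Its difference from MNC was 0.02 (interval -0.10 to 0.14) in M1 and 0.01 (interval -0.16 to 0.17) in M3. The interval of Bbc3 in M3 reaches to -0.75, so the absence of calls does not show that these genes were equal.

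**Figure D2:**
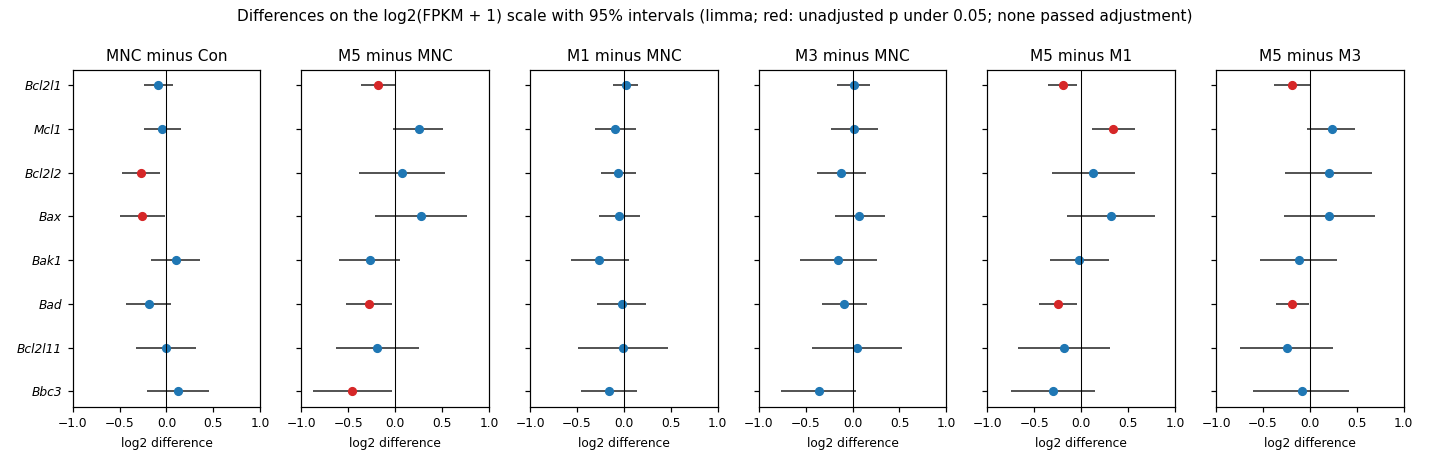
Log2 differences between group means (horizontal axes, log2 of FPKM + 1) with 95% intervals from limma for the 8 members tested (rows), in 6 comparisons of 3 against 3 libraries. Red points have an unadjusted p under 0.05 and none passed adjustment. Bcl2l1 and Bad lie left of 0 in each of the 3 panels with M5, and Mcl1 lies right of it.

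The make-up of the family was compared within libraries, where scaling between libraries plays no part. The 4 survival genes held 59.3% ± 0.8 (SD, n = 3) of the summed FPKM of the 10 members in Con, 59.7% ± 2 in MNC, 60.7% ± 1.6 in M1, 61.3% ± 1.9 in M3 and 63.1% ± 0.8 in M5. These shares are descriptions without a test. The BH3-only genes held 28.8% ± 1.1 in Con and 24% ± 2.1 in M5, most of it Bad, and the effectors 11.9% ± 0.32 and 12.9% ± 2.3. Survival shares of single libraries ran from 57.7% in MNC replicate 3 to 64% in M5 replicate 2.

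Within the survival genes, the ratio of Mcl1 to Bcl2l1 was 0.561, 0.601 and 0.605 in Con and 0.646, 0.579 and 0.594 in MNC. It was 0.543, 0.606 and 0.53 in M1 and 0.538, 0.601 and 0.711 in M3. In M5 it was 0.736, 0.752 and 1, above each of the other 12 libraries, of which M3 replicate 3 came closest. That ranking follows from the values given above, where the M5 libraries were the highest for Mcl1 and the lowest for Bcl2l1. The ratio is therefore no further support for either. The ratio of Bax to Bcl2, often used as an index of apoptosis, averaged 6.0 ± 0.18 in Con on the log2 scale, 5.14 ± 0.21 in MNC, 5.51 ± 0.61 in M1, 5.81 ± 0.13 in M3 and 5.44 ± 0.44 in M5. Since Bcl2 was at 0.11 to 0.44 FPKM, this ratio rests on values close to the resolution of the table. With a pseudocount of 1, the difference of MNC from Con was -0.35 in place of -0.86.

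**Figure D3:**
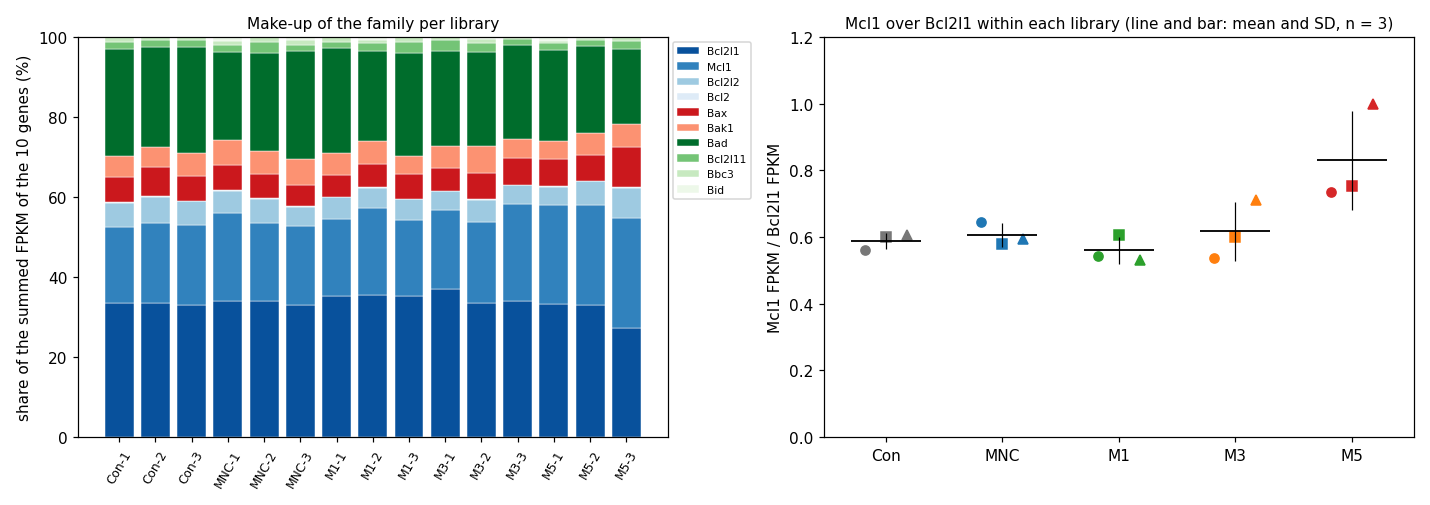
Left, share of each gene in the summed FPKM of the 10 members (vertical axis, percent) in the 15 libraries, with survival genes in blue, effectors in red and BH3-only genes in green. Right, Mcl1 FPKM over Bcl2l1 FPKM in each library by group, with the mean and SD of 3 libraries. The 3 M5 ratios (0.736, 0.752 and 1) are the highest of the 15.

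Bid had the largest span of group means of the 10 members, 0.82 on the log2(FPKM + 1) scale, ahead of Bad and Bbc3 (0.46 each). The genes whose profiles over the 15 libraries were most like that of Bid were Dhx33 (root mean square difference 0.21), Cecr2 (0.22) and Spdye4c (0.27), on a scale where the profile of Bid itself had a root mean square of 0.46. Those nearest to Bad were Ntmt1 and Sirt3 (0.05 each) and Fam234b (0.06), against 0.17 for Bad. Those nearest to Bbc3 were Psd (0.09), Zfp219 and Erf (0.10 each), against 0.25. No test was made of these likenesses.

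Cecr2 is a near neighbour of Bid, and the genes around Bid were then examined, chosen after their values had been seen. In RefSeq annotation of GRCm38, Bid spans chr6:120893119-120917062 on the minus strand. Bcl2l13, which encodes a Bcl2-like protein of the mitochondrial outer membrane, lies next to it on the plus strand (chr6:120836206-120892842). Slc25a18 (chr6:120773504-120794169) and Cecr2 (chr6:120666314-120771191) lie further along, with Atp6v1e1 between them and Bcl2l13. Bcl2l13 had 0.14 FPKM in Con replicate 1 and was listed at 0 in the 2 other Con libraries, and it had 6.63, 1.69 and 4.33 in MNC, 0.83, 3.8 and 1.0 in M1, and 7.18, 2.37 and 0.05 in M5. In M3 it was listed at 0, then at 4.07 and 0.7. Slc25a18 had 2.26, 0.59 and 1.71 FPKM in MNC and at most 0.15 in Con, and Cecr2 had 7.06, 4.22 and 4.98 in MNC and 2.25 to 2.51 in Con. The 5 libraries with the highest Bid values, MNC 1 and 3, M1 2, M3 2 and M5 1, were also the 5 highest for Bcl2l13, Slc25a18 and Cecr2. For Mical3, the next gene on the other side of Bid, 3 of the 5 were shared, and for Atp6v1e1 1 of the 5. Atp6v1e1 encodes a proton pump subunit that all cells use, and it was listed at 0 in M1 replicate 1, M3 replicate 3 and M5 replicates 2 and 3, so a listed 0 here may not mean absence of the RNA. Bcl2l13 was called in MNC against Con (limma adjusted p = 0.021), which ended without Con replicate 1, Con replicate 2 or MNC replicate 3.

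**Figure D4:**
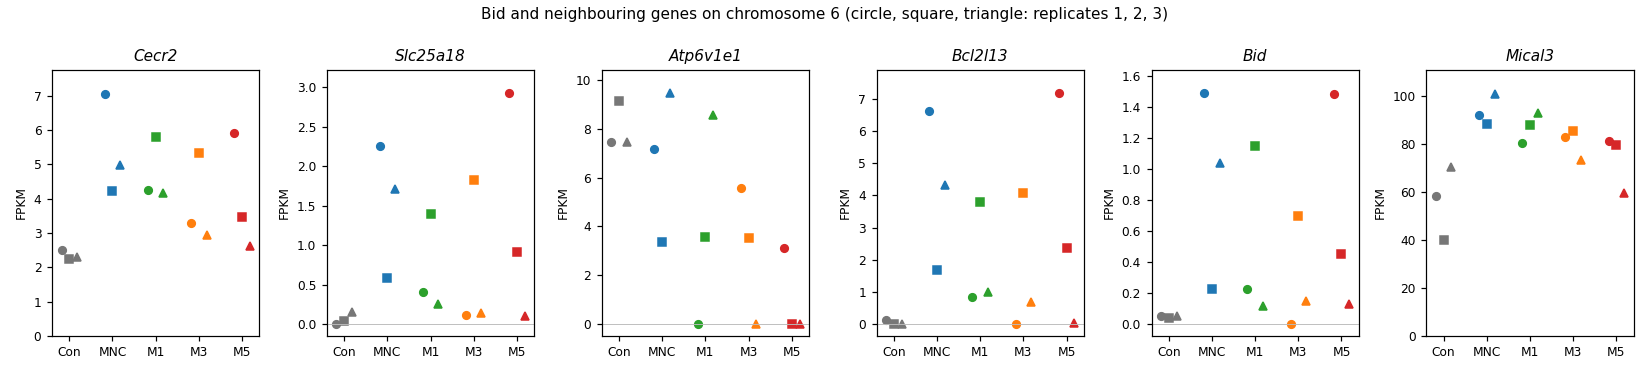
FPKM (vertical axes) of Bid and 5 neighbouring genes of chromosome 6 in the 5 groups, with circles, squares and triangles for replicates 1, 2 and 3. Cecr2, Slc25a18, Bcl2l13 and Bid have the same libraries on top (MNC 1 and 3, M1 2, M3 2, M5 1), and Atp6v1e1 and Mical3 do not.

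The wider cell death pathway was followed through 71 further genes in 5 lists, of which 58 were tested. In MNC against Con, 11 of them were called (19%, against 20.4% of all genes), 4 higher and 7 lower. In M5 against MNC 5 were called, all higher (8.62%, against 5.65% of all genes), and in M5 against M1 5 were called, 4 higher and 1 lower (8.62%, against 6.75% of all genes). The median log2 difference of M5 from MNC was 0.15 for other relatives and partners of the family and 0.21 for the mitochondrial pathway. It was 0.12 for caspases and their substrates, 0.10 for death receptors and 0.03 for upstream regulators, beside 0.03 over all genes tested. None was called in the 3 other pairs that hold M1 or M3, where hardly any gene was. The share of all genes called was 0% for M1 against MNC, 0.00689% for M3 against MNC and 0.0138% for M5 against M3. The counts leaned on single libraries. Without Con replicate 1 the count for MNC against Con was 0, and for M5 against MNC it was 0 without MNC replicate 2, MNC replicate 3 or M5 replicate 2. For M5 against M1 it was 0 without M1 replicate 1 or M1 replicate 3.

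Of 18 other relatives and partners of the family tested, 3 rose and 3 fell in MNC against Con, where 20.4% of all genes were called. The 3 that fell had smaller differences than the 3 that rose and are not named, by the naming rule of the methods. Bcl2l14, which encodes BCL-G, had 94.47, 88.59 and 110.45 FPKM in Con and 150.76, 162.63 and 172.21 in MNC. It rose by 0.72 on the log2 scale (limma adjusted p = 0.0168), and M1, M3 and M5 also lay above each Con library, at 170.62 to 204.76. Of the round spermatid markers, led by Tssk1, 3 of 6 were called higher in MNC against Con. Their sums were 809 to 855 FPKM in Con, 1003 to 1025 in MNC, 969 to 1020 in M1, 928 to 1066 in M3 and 867 to 882 in M5. Their part in the Bcl2l14 values was not tested. Bcl2a1b, a haematopoietic survival gene, rose from 0.42 ± 0.32 to 2.26 ± 1.2 FPKM (limma adjusted p = 0.0356), and Bcl2a1d, a close copy, from 2.11 ± 0.3 in MNC to 4.02 ± 0.33 in M5 (limma adjusted p = 0.0333) and from 1.95 ± 0.2 in M1 (limma adjusted p = 0.0164). Reads of the Bcl2a1 copies may be split between them. Summed macrophage markers, led by C1qa, ranged from 30.9 to 39.9 FPKM in Con, from 39.8 to 75.6 in MNC and from 41.6 to 97.7 in M5, and their part in the Bcl2a1 values was not tested. Bcl2l12 was at 33.2 ± 2.5 FPKM in Con, 23.8 ± 4.3 in MNC and 22.2 ± 4.3 in M3. It fell from 22.2 ± 2.3 in M1 to 16 ± 1.4 in M5 (limma adjusted p = 0.0492), a call kept under 2 of 15 alternatives. That of Bcl2a1b was kept under 8 of 15, and those of Bcl2a1d under 7 of 15 against MNC and 10 of 15 against M1.

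Mtch2, a mitochondrial outer membrane protein that serves as a receptor for truncated BID, had 276.03, 274.85 and 257.74 FPKM in MNC, 296.13, 298.03 and 280.78 in M1, and 401.32, 375.84 and 369.99 in M5. It rose in M5 by 0.50 on the log2 scale against MNC (limma adjusted p = 0.0153) and by 0.39 against M1 (limma adjusted p = 0.017). M3 held 289.65, 286.91 and 396.09 FPKM, so that its replicate 3 lay among the M5 libraries. Of the 11 tested genes of the mitochondrial pathway downstream of the pore, 3 rose in M5 against MNC and none fell, where 5.65% of all genes were called. Cycs, the somatic cytochrome c, had 9.58, 8.54 and 7.57 FPKM in MNC and 18.37, 17.69 and 24.11 in M5, a rise of 1.13 on the log2 scale (limma adjusted p = 0.0166). Cyct, the testis cytochrome c, had 77.66, 73.69 and 78.63 in MNC and 118.41, 108.8 and 108.22 in M5, a rise of 0.54 (limma adjusted p = 0.0131). M3 replicate 3 again stood nearest to M5 among the other knockdown libraries, with 14.16 FPKM of Cycs and 112.23 of Cyct. Against M1, Cycs rose by 0.95 (limma adjusted p = 0.0132) and Cyct by 0.40 (limma adjusted p = 0.0185). Birc2, an inhibitor of apoptosis, rose from 25.8 ± 1.2 in MNC to 32.4 ± 1 in M5 (limma adjusted p = 0.0414). M1 (28.38 to 30.16 FPKM) and M3 (27.85 to 29.7) also lay above each MNC library (24.38 to 26.48), and Con was at 35.6 ± 1.1. For Cyct too, each M1 and M3 library lay above MNC. The call of Birc2 against MNC was kept under 5 of 15 alternatives, and those of Cycs, Cyct and Mtch2 under 10, 9 and 8. With each library centred on its median, Cyct, Mtch2 and Birc2 were no longer called in M5 against MNC (limma adjusted p = 0.0724, 0.0817 and 0.133), nor were Cyct and Mtch2 in M5 against M1 (limma adjusted p = 0.123 and 0.138). Of the red blood cell markers, led by Hba-a1, 3 of 5 were called higher in M5 against MNC, with sums of 148 to 491 FPKM in M5 and 21.8 to 35.3 in MNC. Of the spermatocyte markers, led by Tex101, 2 of 7 were called higher, with sums of 644 to 691 and 563 to 595. Their part in these rises was not tested.

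In MNC against Con, 3 of the 11 mitochondrial genes fell and none rose, beside 20.4% of all genes called. Birc2 fell from 35.6 ± 1.1 to 25.8 ± 1.2 FPKM (limma adjusted p = 0.0162), Cyct from 94.7 ± 7 to 76.7 ± 2.6 (limma adjusted p = 0.03), and Diablo, which counters inhibitors of apoptosis, from 149 ± 4.3 to 124 ± 5.8 (limma adjusted p = 0.0266). With median centring neither Cyct nor Diablo was called (limma adjusted p = 0.0643 and 0.115). The falls of Birc2 and Cyct share the MNC libraries with their rises in M5. Of 9 caspases and substrates tested, Parp1, a DNA repair enzyme cut by caspases, fell from 32.6 ± 0.43 to 25.9 ± 1.4 (limma adjusted p = 0.0214). Of 8 death receptor genes, Mlkl, the pore-forming protein of necroptosis, had 3.82, 2.77 and 4.29 FPKM in Con and 9.64, 8.91 and 9.38 in MNC, a rise of 1.17 (limma adjusted p = 0.0158). Of the 7 spermatocyte markers 6 were called lower in MNC, with sums of 563 to 595 FPKM against 715 to 769 in Con, and their part in the changes between MNC and Con was not tested. None of the 12 upstream regulators tested was called in any of the 6 comparisons, in which 0% to 20.4% of all genes were called.

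**Figure D5:**
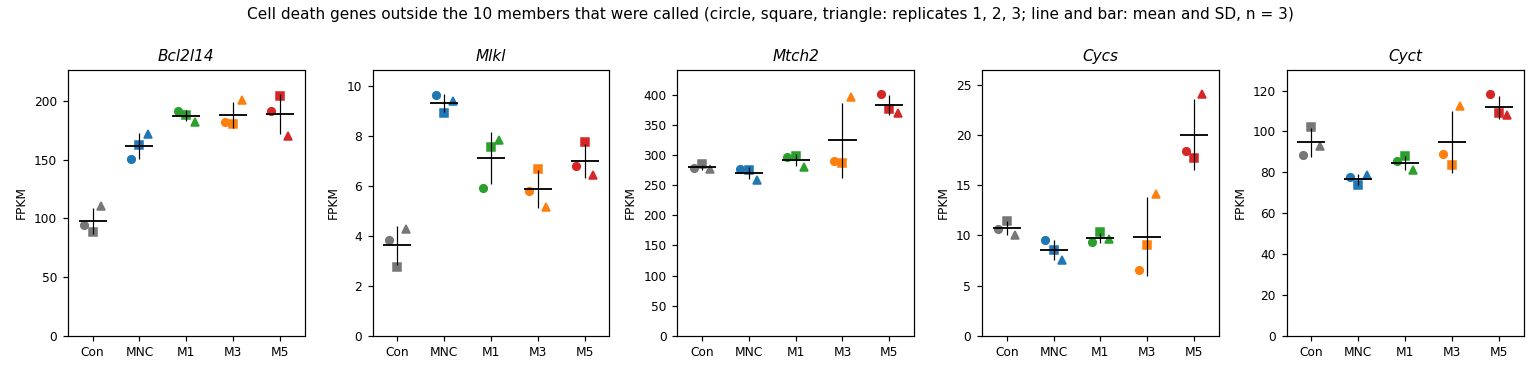
FPKM (vertical axes, from 0) of 5 called cell death genes outside the 10 members, in the 5 groups, with circles, squares and triangles for replicates 1, 2 and 3 and black lines for the mean and SD of 3 libraries. Bcl2l14 and Mlkl are lowest in Con, and Mtch2, Cycs and Cyct have M3 replicate 3 (396.09, 14.16 and 112.23 FPKM) apart from the other M3 libraries.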

How the data were processed

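Poly(A) RNA of 15 mouse testis libraries was sequenced. The authors deposited 1 table of FPKM values with 2 decimals, and per their methods SOAPaligner mapped the reads to reference genes and read numbers were scaled by gene length and mapped total. The submitters' processing notes name mm10, and the annotation and the handling of multimapped reads are not given in the sources used here. Steps between low values were too fine at 2 decimals to recover depth, which is unknown. Groups and replicate numbers came from sample titles, and M5 replicate 2 rests on its title, since its description points to another column. Gene IDs were named with the RefSeq table of GRCm38.p6 (21143 of 23510 matched). Values were analysed as log2(FPKM + 1), which understates changes of low genes, with limma 3.58.1 in R 4.3.3 (lmFit, eBayes with trend, 2 groups per fit, no covariate), two-sided, and Benjamini-Hochberg adjustment over the 14514 genes whose mean FPKM reached 1. Fits were tested on simulated data. The study's own test models counts and could not be applied. Bcl2 and Bid were compared by two-sided exact permutation tests.

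Coding sequences came from GENCODE M21. The result of 1 marker list is not reported here. The members and gene lists were chosen with earlier results of these data known. Genes named outside the 10 members were, by rule, up to 3 called genes per list and comparison with the largest change, the leading gene of a marker list whose values stand beside a result, and the 3 genes most like each of the 3 members with the widest span. Python 3.11.15 with pandas 2.3.3, numpy 2.4.6 and matplotlib 3.10.9 was used. Alternatives were a pseudocount of 0.1, a filter at a mean FPKM of 0.1 or none, median centring, quantile normalization, eBayes without trend, a single fit of all 5 groups, a block for the replicate number, removal of the GC trend (92.1% of tested genes had a GC value), the study's threshold and leaving out each replicate. For the members these were planned. For the wider gene lists they were chosen after seeing the data.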

Additional observations from a re-analysis of the deposited data

Results flagged for a closer look

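The group means of Bcl2l1 in M5 and M1 lay on opposite sides of the MNC mean. Each M5 library (37.3 to 42.13 FPKM) was below the MNC mean of 45.7 FPKM, and each M1 library (46.08 to 46.7) was above it, although M1 lay within the range of MNC. The log2 difference of M1 from MNC was 0.02 (interval -0.10 to 0.14), and it turned to -0.0198 without MNC replicate 2. The log2 difference of M5 minus M1 was -0.20. The opposite directions themselves were not tested, and the direct comparison of M5 with M1 did not pass (limma adjusted p = 0.0927). The 2 knockdown groups share the MNC libraries.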

How the results depend on the processing

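Read depth is unknown, which limits Bcl2 and Bid most, and 3 libraries per group limit all tests. Of the 8 members tested, 0 were called under every alternative for MNC against Con, M1 against MNC, M3 against MNC and M5 against M3. With all 5 groups in one fit, 1 was called for M5 against MNC (Bad, limma adjusted p = 0.0459) and 1 for M5 against M1 (Mcl1, limma adjusted p = 0.04). Leaving out 1 library gave 0 to 1 for M5 against MNC, the 1 being Bbc3 without M5 replicate 3. The labels do not say whether replicate numbers pair the samples. Same-numbered deviations from the group means correlated at -0.399 to 0.177, which cannot decide it with 3 libraries per group. With a replicate block, members called stayed at 0 in each comparison. All genes called went from 2967 to 10 for MNC against Con and from 820 to 14 for M5 against MNC. For M5 against M1 they went from 980 to 39. Called genes of the wider lists went to 0 with the replicate block in each of these 3 comparisons. Over all genes, leaving out 1 library gave 8 to 2497 calls for MNC against Con, 35 to 946 for M5 against MNC and 56 to 1690 for M5 against M1. In the wider lists it gave 0 to 12, 0 to 4 and 0 to 4. Their counts were 6 with no filter and 7 with the GC trend removed for MNC against Con, 2 (median centring) and 1 (GC trend removed) for M5 against MNC, and 2 under either for M5 against M1. With all 5 groups in one fit, all genes called were 3125 and 2424 for the first 2 comparisons. With median centring they were 1869 for MNC against Con, 182 for M5 against MNC and 252 for M5 against M1. With the GC trend removed they were 2067, 139 and 142 in the same order. For M5 against M3, 188 genes were called without M3 replicate 3.

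With a pseudocount of 1, the difference of the log2 Bax to Bcl2 ratio was -0.35 for MNC against Con, 0.16 for M3 against MNC and 0.09 for M5 against M3. It was also 0.02 in place of 0.37 for M1 against MNC and 0.24 in place of -0.07 for M5 against M1, for which leaving out 1 library gave 0.02 to 0.58 and -0.28 to 0.28. Without Bcl2l1, the survival share was 38.9% in Con, 39.2% in MNC, 39.1% in M1, 40.7% in M3 and 46.3% in M5. Some member differences changed sign, among them those of Bid in M5 against MNC (-0.21) and Bax in M5 against M3 (0.20). With median centring, MNC against Con gave 0.00464 for Bcl2l1, 0.0446 for Mcl1 and 0.0861 for Bcl2l11, and M1 against MNC gave 0.0229 for Bcl2l11 and 0.00746 for Bad. With quantile normalization, MNC against Con gave 0.00519 for Mcl1 and 0.0217 for Bcl2l11, and M1 against MNC gave 0.0437 for Bcl2l11. With the GC trend removed, MNC against Con gave 0.000164 for Mcl1 and 0.0648 for Bcl2l11, M1 against MNC gave 0.00101 for Bax, 0.00626 for Bcl2l11 and 0.0223 for Bad, M3 against MNC gave 0.0276 for Bad, M5 against M1 gave 0.0678 for Bak1 and M5 against M3 gave 0.0614 for Bbc3. Leaving out 1 library gave, for MNC against Con, -0.13 to 0.10 for Bcl2l11 and -0.12 to 0.0267 for Mcl1. For M5 against MNC it gave -0.52 to 0.0421 for Bid, -0.0765 to 0.0857 for Bcl2 and -0.12 to 0.24 for Bcl2l2. For M1 against MNC it gave -0.093 to 0.0214 for Bax, -0.0198 to 0.0479 for Bcl2l1, -0.18 to 0.13 for Bcl2l11 and -0.081 to 0.0705 for Bad. For M3 against MNC it gave -0.0353 to 0.0449 for Bcl2l1, -0.0499 to 0.0929 for Mcl1, -0.0815 to 0.23 for Bcl2l11 and -0.14 to 0.00679 for Bad. For M5 against M1 it gave -0.11 to 0.0678 for Bak1, -0.17 to 0.44 for Bid, -0.0154 to 0.15 for Bcl2 and -0.0633 to 0.30 for Bcl2l2. For M5 against M3 it gave -0.27 to 0.0446 for Bbc3, -0.0208 to 0.33 for Bax and -0.27 to 0.0244 for Bak1. The cause of these shifts was not tested.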
